A study of Mus musculus with 80 samples.

Results

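The genes described are 31 genes of cholesterol synthesis, of its control by the sterol-sensing SREBP pathway, and of cholesterol uptake, esterification and export. They were chosen by symbol, as the rows of the normalized table whose symbol, or an older synonym, is on the list. The table held 27 of the 31, among 18138 entries, with Msmo1 under its older symbol Sc4mol. Hmgcs1, Mvk, Fdft1 and Npc1 were not analysed here. Of the 27, 26 passed the filter on undetected genes and were tested with 11352 genes in all. The exception was Abca1, which exports cholesterol to apolipoprotein A1 and was detected on 0 of 80 arrays, with intensities of 91.8 to 105.9. 15 of the 18 synthesis enzymes on the list were tested.

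Liver cells build cholesterol from acetyl-CoA through mevalonate, farnesyl diphosphate, squalene and lanosterol, and a chain of microsomal enzymes then turns lanosterol into cholesterol. When sterols are scarce in the endoplasmic reticulum, SCAP carries the transcription factor SREBP-2, the product of Srebf2, to the Golgi, where it is cut by a protease encoded by Mbtps1 and then induces the synthesis genes. When sterols are plentiful, the Insig proteins hold SCAP back and the same genes are transcribed less. Hepatocytes also take up cholesterol from lipoproteins, store it as esters, and secrete it into bile through the transporter formed by Abcg5 and Abcg8.

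Transcripts were measured on 80 Illumina bead arrays, in 19 groups, from whole liver of male mice of the B6C3F1 hybrid strain. Ethinyl estradiol (EE2), a synthetic estrogen, was given in the feed for 7 days at 4 levels (1, then 2.5, then 5 and at most 10 ppm), and for 28 days at 10 ppm. Prednisone (PRED), a synthetic glucocorticoid that the liver activates, was likewise fed for 7 days (1.25, then 2.5, then 5 and at most 25 ppm) and for 28 days at 25 ppm, and androstenedione (A4), an androgen precursor, was gavaged in carboxymethyl cellulose for 7 days (daily doses of 2, then 10, then 20 and at most 50 mg/kg) and for 28 days at 50 mg/kg/day. Each treated group and each of the 2 gavage control groups had 4 arrays, and each of the 2 groups on control feed had 6. The labels give no age and do not say that each array is a separate animal, so p-values measure the spread between these arrays, which may in part be technical.

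Values are normalized intensities on a linear scale, and changes are differences of log2(intensity + 16) with their SE, so that the change of weakly expressed genes is understated. A member is called higher or lower where limma's adjusted p over all 11352 genes was under 0.05. 7743 to 9328 entries were detected per array. Of the 10 hepatocyte markers, 7 were detected on all arrays. Alb, Tat and Fgb were detected on only 47, 23 and 30 arrays. Their median intensities of 111.1, 100.3 and 101.6 lay near the array medians, so they add little to the sum. The summed intensity of the 10 was 43684 to 58204 in the control feed, EE2 and PRED 25 ppm groups. After 28 days of EE2 it was 43684 to 50343, below the 53623 to 57822 of its feed controls. 2, 2 and 3 of the 10 were lower at EE2 5 ppm, 10 ppm for 7 days and 10 ppm for 28 days, against 11.6%, 15.2% and 13.8% of all genes tested. 1, 1 and 0 were higher, against 12.8%, 18.1% and 14.8%. At 1 and 2.5 ppm 0 were lower and 1 and 2 higher, where 7.06% and 7.02% of all genes were lower and 6.29% and 7.58% higher. Counts this small do not set the hepatocyte markers apart from all genes. 11 of the 12 macrophage and Kupffer cell markers were detected, 8 of them on all arrays, and Cd5l was detected on 0 arrays. Their summed intensity was 4723 to 6718 on the 7-day feed controls and reached 30145, 17183 and 28878 on 1 array each of EE2 1, 2.5 and 5 ppm, above all other arrays of those groups, whose highest was 10144. At 10 ppm for 7 days it was 24816, 5777, 16132 and 23931, so that replicate 2 lay apart. All 5 erythroid markers had a negative change in each of the 5 EE2 comparisons with control, with 1 or 2 lower by the test. 1 to 3 of the 9 stellate cell markers were lower. In these comparisons 7.02% to 15.2% of all genes were lower, so the stellate counts do not set these markers apart from all genes. The part of these cells in the results was not tested. Counts for EE2 at 7 days are also given without the 4 arrays that stood apart in macrophage markers, an alternative chosen after seeing the data. The share of all genes called in that alternative is not given. Whether a changed count there concerns the members or all genes cannot be told. In whole liver, fewer cells of a type and less RNA per cell cannot be told apart.

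At 1, 2.5 and 5 ppm of EE2 for 7 days, most of the synthesis enzymes fell, by log2 changes of -1.56 to -0.60 among those called. 8, 10 and 10 of the 15 enzymes were lower at the 3 doses and 0 were higher, with a median log2 change of -0.90, -0.92 and -0.80. All 15 had a negative change at each dose. Of all 26 tested members, 10 were lower and 1 higher at 1 ppm, where 7.06% of all genes tested were lower and 6.29% higher. 11 were lower and 2 higher at 2.5 ppm (7.02% and 7.58% of all genes), and 12 lower and 0 higher at 5 ppm (11.6% and 12.8%). The median of all genes was within 0.01 of 0. 9, 11 and 4 members had arrays that did not overlap the controls, against 8.25%, 11.3% and 12% of all genes. At 5 ppm the share of members was near that of all genes. Within the 2 chips per comparison that held both groups, 11 and 11 of 11, 11 and 13 of 13, and 12 and 12 of 12 called members had the direction of the whole comparison. Each of these chips held 1 or 2 treated arrays and 1 control array. The same arrays entered the calls, so the agreement is not independent of them. At 2.5 ppm the median enzyme difference was -0.106 on chip 1 and -1.33 on chip 6. Without the 4 arrays apart, 12, 15 and 14 members were called. At 1 and 2.5 ppm the array left out had the highest enzyme mean of its group, so its omission lowers the group by itself. These comparisons share their control arrays.

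Among the early enzymes, which lead from acetyl-CoA to farnesyl diphosphate, Acat2, Pmvk and Mvd fell at all 3 doses. Acat2, the cytosolic thiolase that joins acetyl-CoA units, read 487, 484, 698 and 386 at 1 ppm and 308, 625.2, 596 and 541 at 2.5 ppm, against 653 to 1452 with a median of 952 on the 6 controls. All but 1 of these 8 arrays lay below the lowest control (2.5 ppm: log2 change -0.92, SE 0.22, adjusted p = 0.00185). Pmvk, phosphomevalonate kinase, read 162.1, 273, 379 and 205 at 2.5 ppm and 433 to 628 with a median of 478 on the controls, with no overlap (log2 change -1.01, SE 0.21, adjusted p = 0.000313). Mvd, which decarboxylates mevalonate diphosphate, changed by -0.99, -1.17 and -1.01 at the 3 doses. Its call at 1 ppm was lost under 9 of 19 alternatives, among them the omission of EE2 replicates 2 or 4 or of control replicates 1, 2 or 6 (adjusted p up to 0.145), and at 5 ppm when EE2 replicate 1 or 2 was left out. Idi1 and Fdps, the isomerase and the farnesyl diphosphate synthase, were not called at any dose (1 ppm: log2 change -0.16, SE 0.10, adjusted p = 0.342 and log2 change -0.35, SE 0.40, adjusted p = 0.617). Fdps spread widely, at 1079, 15280.4, 12178 and 4670.0 at 2.5 ppm.

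The steps around squalene and lanosterol were more variable. Sqle, squalene epoxidase, read 341, 233, 752 and 149.1 at the 1 ppm dose, 128.7, 602, 383 and 261 at the 2.5 ppm dose and 232, 140.7, 1371 and 862 at the 5 ppm dose, against 508 to 899.9 with a median of 742 on the controls. In each of these groups at least 1 array lay within or above the control range, and it was called only at 2.5 ppm (log2 change -1.19, SE 0.41, adjusted p = 0.0378), a call lost when EE2 replicate 1 or 4 or control replicate 1, 2, 4 or 5 was left out. Cyp51, lanosterol demethylase, was below every control at 1 and 2.5 ppm, at 441, 379.7, 642 and 276 and at 224, 660.1, 452 and 407, against 738 to 1189.5 with a median of 911 (log2 change -1.12, SE 0.29, adjusted p = 0.00496 at 1 ppm). At 5 ppm its 4 arrays split into 272, 244, 1160.0 and 853, and the call there was lost without EE2 replicate 1 or 2 or control replicate 2 or 4. In the groups at 1, 2.5 and 5 ppm the array with the highest macrophage marker sum also had the highest Sqle and Cyp51, and whether the markers play a part in these values was not tested. Lss, lanosterol synthase, was not called (changes of -0.53, -0.58 and -0.39).

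**Figure D1:**
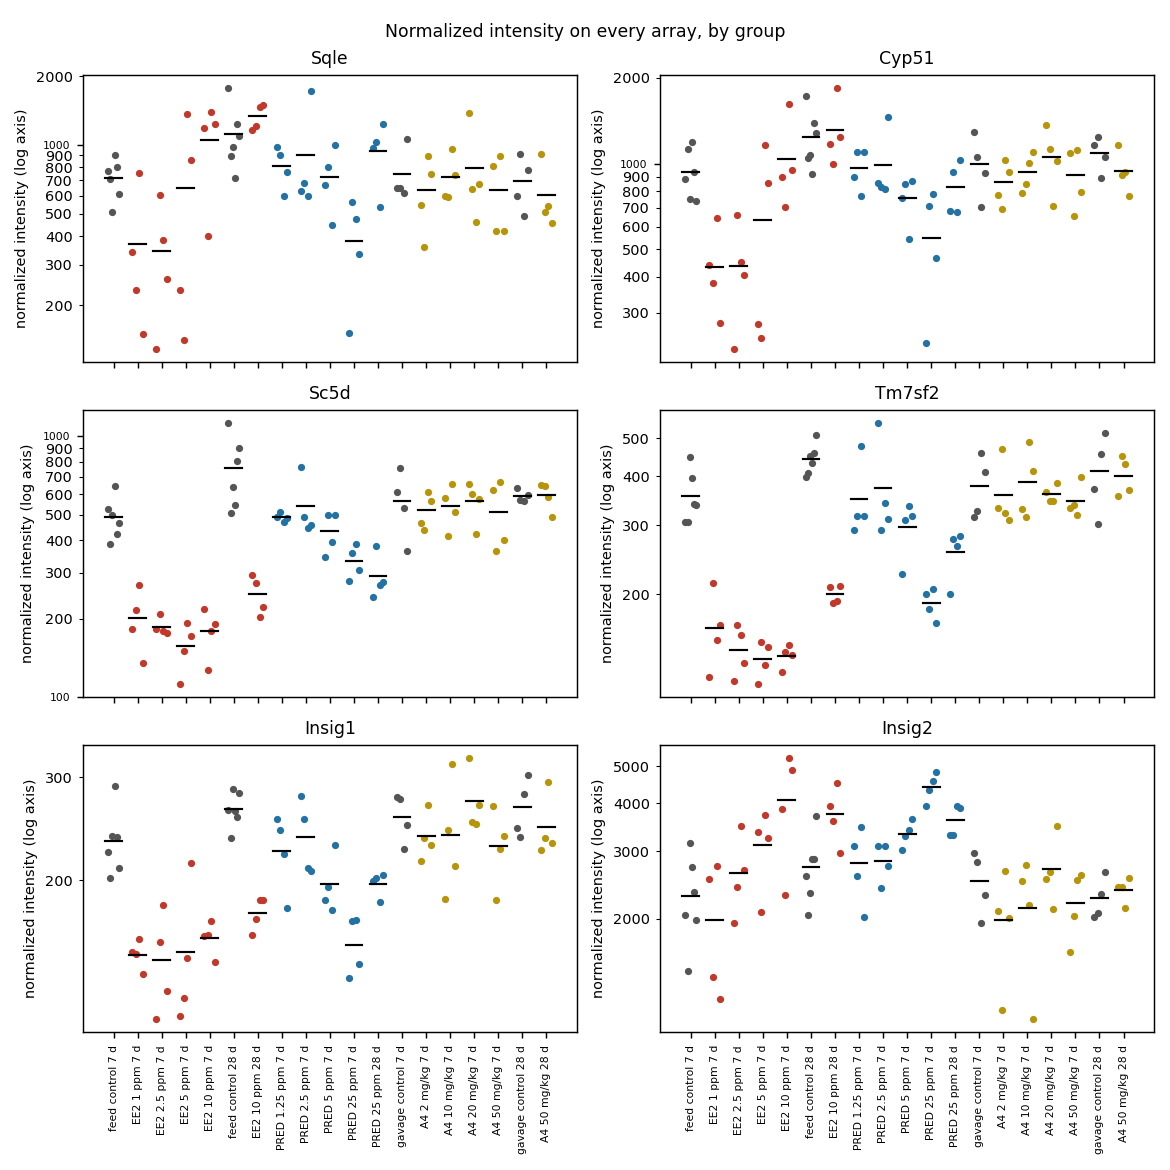
Normalized intensity of 6 members on each of the 80 arrays (log axis), 1 panel per gene and 1 column of points per group, with a line at the group mean. Sc5d, Tm7sf2 and Insig1 were low in all 5 EE2 groups, whereas Sqle and Cyp51 were low on most arrays at 1 and 2.5 ppm and split at 5 ppm. At 10 ppm for 7 days Cyp51 lay around the control range, and the Sqle arrays lay on either side of it.

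Among the late enzymes, from lanosterol to cholesterol, Tm7sf2, Sc5d and Dhcr7 fell at all 3 doses with no treated array inside the control range. Tm7sf2, a sterol C14 reductase, read 123.2, 213, 152.98 and 167.3 at the 1 ppm dose, 120.4, 167.03, 157.5 and 133.3 at the 2.5 ppm dose and 118.02, 151.3, 132.2 and 146.4 at the 5 ppm dose, against 306 to 449 with a median of 339 on the controls. All 12 treated arrays lay below every control (5 ppm: log2 change -1.27, SE 0.14, adjusted p = 1.72e-10). Sc5d, sterol C5 desaturase, read 181.7, 217, 268 and 135.3 at the 1 ppm dose, 182.7, 208, 178.9 and 175.95 at the 2.5 ppm dose and 112.2, 150.8, 192.8 and 171.2 at the 5 ppm dose, against 388 to 648 with a median of 483, again with no overlap (5 ppm: log2 change -1.56, SE 0.19, adjusted p = 1.41e-09). Dhcr7, which makes cholesterol from its 7-dehydro precursor, changed by -1.10, -1.28 and -1.15, below every control at each dose. Nsdhl, which acts in removing the C4 methyl groups, changed by -0.90, -0.88 and -0.75 and overlapped the controls at 5 ppm. Msmo1, the C4 methyl oxidase, was called at 2.5 and 5 ppm (-0.82 and -0.80), but these calls were lost under 10 and 7 of 19 alternatives, among them the omission of single EE2 or control arrays. Ebp, the sterol isomerase, fell at 5 ppm (log2 change -0.60, SE 0.16, adjusted p = 0.00259), and Hsd17b7, which reduces the C3 ketone, was not called (changes of -0.39, -0.29 and -0.20).

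Because these enzymes moved together, their promoters were read from the RefSeq promoter table, build GRCm38.p6, over the 250 bases before the start. 13 of the 15 enzymes in the table and 9 of the 12 other members had a promoter there. A gene with several starts was counted if the bases before any of them held a match. On both strands, CCAAT, the letters bound by NF-Y, was found so in 12 of the 13 enzymes (92.3%), in 5 of the 9 others (55.6%) and in 37.5% of 27025 genes. Dhcr7, Pmvk, Insig2 and Abcg8 were counted though some of their listed starts had no match. One strict form of the sterol regulatory element, TCACNCCAC, occurred in 0 of the 13 and 0 of the 9, against 1.22% of all genes. The shorter CACNCCAC occurred in 1 of the 13 and 1 of the 9, against 6.05%. Other forms of the element and bases farther from the start were not searched. The 21 CCAAT matches lay 12 to 170 bases before the start. The last 120 bases before the start are shown for 3 enzymes that fell at 1 ppm and remained called at 10 ppm (Nsdhl, Tm7sf2, Sc5d) and for 3 that were not called at 10 ppm (Mvd, Lss, Cyp51), with CCAAT or its reverse complement ATTGG in capitals, each 5′ to 3′ on the strand of the gene:
Nsdhl, chrX:72918401-72918520, plus strand: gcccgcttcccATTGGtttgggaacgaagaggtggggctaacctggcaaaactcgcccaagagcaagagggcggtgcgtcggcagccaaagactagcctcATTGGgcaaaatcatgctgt
Tm7sf2, chr19:6067851-6067970, minus strand: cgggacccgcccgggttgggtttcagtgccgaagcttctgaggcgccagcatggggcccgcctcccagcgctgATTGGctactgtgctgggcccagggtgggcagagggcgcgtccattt
Sc5d, chr9:42264301-42264420, minus strand: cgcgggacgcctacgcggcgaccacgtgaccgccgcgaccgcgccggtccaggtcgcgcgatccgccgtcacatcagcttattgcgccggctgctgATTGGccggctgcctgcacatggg
Mvd, chr8:122443423-122443542, minus strand: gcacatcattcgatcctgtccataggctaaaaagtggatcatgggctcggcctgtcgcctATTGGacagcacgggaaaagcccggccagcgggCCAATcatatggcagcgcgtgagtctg
Lss, chr10:76531485-76531604, plus strand: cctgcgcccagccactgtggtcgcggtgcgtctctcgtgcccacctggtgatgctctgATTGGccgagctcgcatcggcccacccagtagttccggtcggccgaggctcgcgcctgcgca
Cyp51, chr5:4104698-4104817, minus strand: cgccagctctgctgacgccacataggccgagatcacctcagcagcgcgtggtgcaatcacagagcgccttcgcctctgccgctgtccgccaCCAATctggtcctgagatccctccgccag
A match is a description of these letters, and no binding was measured. The lack of a match does not show that a promoter has no such element.

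At 10 ppm of EE2 for 7 days the enzymes separated. 6 of the 15 were lower and 0 higher, with a median log2 change of -0.45. Of the 26 members, 9 were lower and 2 higher, where 15.2% of all genes tested were lower and 18.1% higher. 5 members had arrays that did not overlap the controls, a share near the 18.8% of all genes. Without the 4 arrays apart, 9 members were called. In each of the 2 chips that held both groups, 10 and 11 of the 11 called members had the direction of the whole comparison. Each chip held 1 array of each group, and these arrays also entered the calls. 10 of the 11 tested macrophage markers were higher here, with a median log2 change of 1.15, and their part in these results was not tested.

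Sc5d, Tm7sf2, Ebp, Pmvk and Insig1 were the members below every control. Sc5d read 218, 126.6, 179.5 and 190.8, a group mean of 178.7 ± 38.3 (SD, n = 4) against 492 ± 91.4 on the controls (log2 change -1.39, SE 0.19, adjusted p = 1.82e-08). Tm7sf2 read 126.8, 142.1, 148.3 and 140.3 (SD 9.06; log2 change -1.25, SE 0.14, adjusted p = 1.60e-10). Ebp read 1375, 2037, 2170.0 and 1349.6, against 2185 to 3123 with a median of 2895 (log2 change -0.70, SE 0.16, adjusted p = 0.000304). These 3 calls held under every alternative that was run. Pmvk read 282, 424, 408 and 212 (log2 change -0.64, SE 0.21, adjusted p = 0.0146), and its call was lost with the chip as a block and without EE2 replicate 4 (adjusted p up to 0.133). Dhcr7 and Nsdhl were also lower (-0.80 and -0.48) with overlapping arrays, and the call of Nsdhl was lost without EE2 replicate 1 (adjusted p = 0.0624).

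Sqle, Cyp51 and Lss were not called lower at 10 ppm. Sqle read 1189, 399, 1392 and 1238, 3 arrays above the highest control and 1 below the lowest (log2 change 0.43, SE 0.41, adjusted p = 0.456). Cyp51 read 895, 703, 1613 and 951, around the control range (log2 change 0.10, SE 0.29, adjusted p = 0.819). Lss read 505, 1047, 1186 and 570.0 (log2 change 0.36, SE 0.24, adjusted p = 0.257), and Fdps 10200.1, 15696, 14398 and 10350.2 (log2 change 0.48, SE 0.40, adjusted p = 0.369). The array of replicate 2, with the low macrophage sum, had the lowest Sqle, Cyp51 and Msmo1 of its group.

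The doses of 10 and 1 ppm were compared directly. 4 members were higher at 10 ppm and 0 lower, where 6.48% and 4.26% of all genes were, and they are named here after their values were seen. Sqle differed by 1.57 (SE 0.45, adjusted p = 0.0163), Cyp51 by 1.22 (adjusted p = 0.00784), Lss by 0.89 (adjusted p = 0.0202) and Insig2 by 1.06 (adjusted p = 0.00255). The arrays of 2 members did not overlap, a share near the 7.45% of all genes. Of the 4 called, Cyp51 was the one, with 441, 379.7, 642 and 276 at 1 ppm below 895, 703, 1613 and 951 at 10 ppm. The count rested on single arrays: 1 member was called without EE2 10 ppm replicate 3 or without EE2 1 ppm replicate 4, 2 without EE2 1 ppm replicate 2, and 0 when only these 8 arrays entered the fit. Without the 4 arrays apart it was 6, with Sqle, Cyp51 and Insig2 among them and Sqle at a change of 2.39. That omission removes the highest Sqle and Cyp51 of the 1 ppm group and the lowest of the 10 ppm group. It therefore widens these differences by itself and cannot serve as support for them. For Sc5d, Tm7sf2 and Insig1 the difference between the doses was -0.14 (95% interval -0.55 to 0.27), -0.19 (-0.50 to 0.12) and 0.08 (-0.17 to 0.34), and none of them passed the test. As a trend over control and the 4 EE2 doses, 8 members fell and 1 rose, where 15.2% and 18.7% of all genes did. The largest slopes per dose step were those of Sc5d (log2 change -0.31, SE 0.04, adjusted p = 3.13e-08) and Tm7sf2 (log2 change -0.27, SE 0.03, adjusted p = 5.99e-10).

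**Figure D2:**
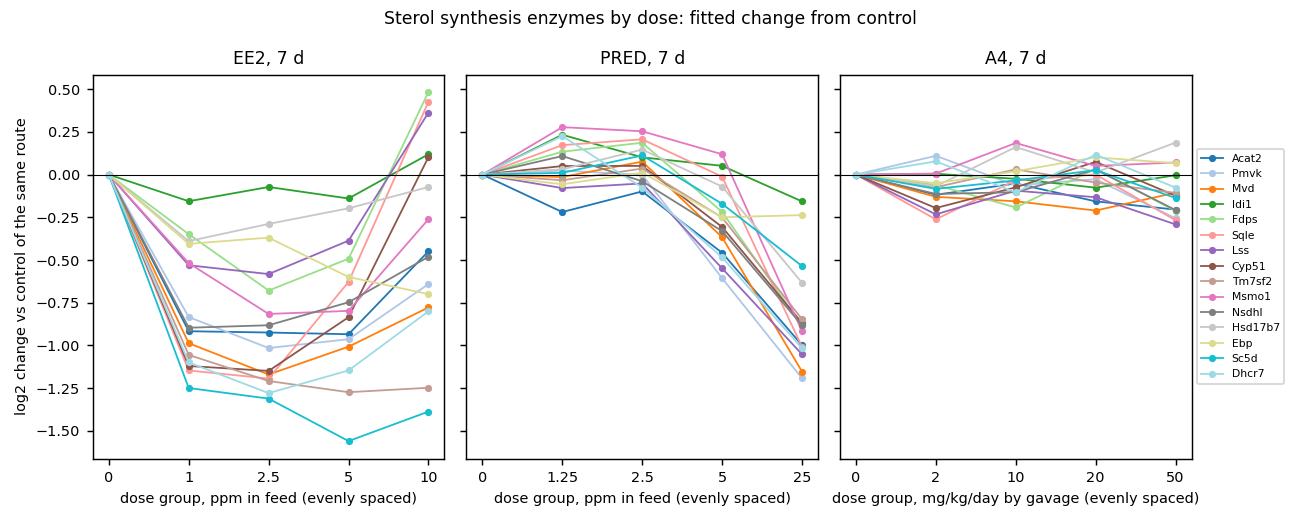
Fitted log2 change of the 15 tested synthesis enzymes from the control of the same route at 7 days, by dose group (evenly spaced, not to scale), 1 line per enzyme and 1 panel per compound. Under EE2 the lines fall together at 1 and 2.5 ppm and spread at 10 ppm, under PRED they fall at 25 ppm, and under A4 they stay within 0.3 of 0.

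After 28 days at 10 ppm of EE2, 3 of the 15 enzymes were lower, with a median change of -0.19. Of the 26 members 6 were lower and 0 higher, where 13.8% and 14.8% of all genes were. 7 members did not overlap the controls, a share near the 26% of all genes. Sc5d read 294, 273, 202 and 222, against 510.2 to 1127 with a median of 722 on the 28-day feed controls (log2 change -1.51, SE 0.19, adjusted p = 1.37e-09). Tm7sf2 read 209, 190.01, 192.05 and 209, against 397 to 509.8 with a median of 441 (log2 change -1.08, SE 0.14, adjusted p = 6.94e-09). For both, every treated array lay below every control. The third, Ebp, overlapped the controls (log2 change -0.53, SE 0.16, adjusted p = 0.00644). Sqle, at 1166, 1208, 1464 and 1499.7, and Cyp51, at 1172, 998, 1849 and 1238, lay within the range of the 28-day controls (718 to 1781 with a median of 1039 for Sqle) or, for Cyp51, partly above it (log2 change 0.08, SE 0.29, adjusted p = 0.881). 10 of 11 macrophage markers were higher (median 1.38), and their summed intensity was 15937 to 18205, against 3654 to 5942 on these controls; their part was not tested. In the test of the 28-day change against the 7-day change, limma called 0 members, where 2.55% of all genes were called, and 2 members had an unadjusted p under 0.05 (15.9% of all genes): Scap (log2 change -0.44, SE 0.20, adjusted p = 0.255) and Lcat (log2 change 0.65, SE 0.24, adjusted p = 0.146). The interval for the enzymes was wide, for example -1.19 to 0.18 for Lss.

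Synthesis enzymes also fell at 25 ppm of PRED, compared with the same feed controls as EE2. 8 of the 15 were lower and 0 higher after 7 days, with a median change of -0.88, and 6 of the 15 were lower after 28 days, with a median of -0.55. All 15 had a negative change at both times. Of the 26 members, 9 were lower and 1 higher at 7 days (2.72% and 3.29% of all genes), with 10 not overlapping the controls (9.58% of all genes), and 9 lower and 0 higher at 28 days (5.25% and 4.64%). In each of the 2 chips per comparison that held both groups, all 10 and all 9 called members kept their direction. Each chip held 1 array of each group, and these arrays also entered the calls. 0 of 11 macrophage markers were called at either time, with median changes of -0.47 and -0.02.

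At 7 days, Pmvk fell most, to 209, 210.4, 243 and 193.3 from 433 to 628 with a median of 478 on the controls (log2 change -1.19, SE 0.21, adjusted p = 6.06e-05). Mvd read 135.96, 250.4, 233 and 132.5, against 290.4 to 531 with a median of 448 (log2 change -1.15, SE 0.33, adjusted p = 0.0202), a call lost without PRED replicate 1 or 4 and with the sample-name number as a random block (adjusted p up to 0.107). Lss read 239, 331, 301 and 259, against 473 to 776 with a median of 584 (log2 change -1.05, SE 0.24, adjusted p = 0.00266). Each of the 3 lay below every control, as did Acat2, at 425, 580.2, 508 and 402 (log2 change -0.998, SE 0.22, adjusted p = 0.00174), and Dhcr7, at 267, 294, 311 and 199.3, against 447 to 691 with a median of 544 (log2 change -1.02, SE 0.20, adjusted p = 0.000246). Tm7sf2 and Nsdhl were lower without overlap (-0.85 and -0.88). Msmo1 was called (log2 change -0.92, SE 0.29, adjusted p = 0.0447), but not when, for example, PRED replicate 1 or 4 or control replicate 1, 3, 4 or 5 was left out. Sqle, Fdps and Cyp51 had changes of -1.01, -0.88 and -0.87 and were not called, with Sqle at 150.3, 564, 473 and 334.

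At 28 days Sc5d changed most, at 243, 381, 269 and 277 against 510.2 to 1127 with a median of 722 (log2 change -1.29, SE 0.19, adjusted p = 3.99e-07), with no overlap. At 7 days it had not been called (log2 change -0.54, SE 0.19, adjusted p = 0.0724), and the difference between the times did not pass the test (log2 change -0.75, SE 0.26, adjusted p = 0.107). Lss read 425, 534, 353 and 463, against 586 to 1202 with a median of 778 (log2 change -0.83, SE 0.24, adjusted p = 0.0154), and its call was lost without PRED replicate 3 or control replicate 1. Pmvk read 324, 298, 323 and 359, against 469 to 724 with a median of 572 (log2 change -0.81, SE 0.21, adjusted p = 0.00619). Acat2 read 699, 759.9, 707 and 796, against 1049 to 1454 with a median of 1296 (log2 change -0.78, SE 0.22, adjusted p = 0.0138), and Tm7sf2 200.2, 276, 265 and 282 (log2 change -0.76, SE 0.14, adjusted p = 6.85e-05). All of these lay below every control, as did Nsdhl (-0.55), and 14 of the 26 members did not overlap the controls, against 13% of all genes. With the number in the sample name as a random block, 4 members were called at 28 days, and Acat2, Lss, Nsdhl, Insig1 and Soat2 were not. limma called 0 members in the 28-day against the 7-day change (1.42% of all genes), with 5 at an unadjusted p under 0.05 (18.9% of all genes), Dhcr7 among them (log2 change 0.70, SE 0.28, adjusted p = 0.147).

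At 1.25, 2.5 and 5 ppm of PRED limma called 0 members, where 0.0264%, 0% and 0.599% of all genes were called. 1, 0 and 6 members had an unadjusted p under 0.05, against 4.4%, 3.49% and 11.7% of all genes. At 5 ppm Pmvk had a change of -0.61 (95% interval -1.03 to -0.18, adjusted p = 0.202), at 292, 292, 257 and 524. Over control and the 4 PRED doses 9 members fell and 1 rose, where 3.23% and 4.08% of all genes did, led by Pmvk (log2 change -0.30, SE 0.05, adjusted p = 8.37e-06) and Dhcr7 (log2 change -0.27, SE 0.04, adjusted p = 1.11e-05).

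**Figure D3:**
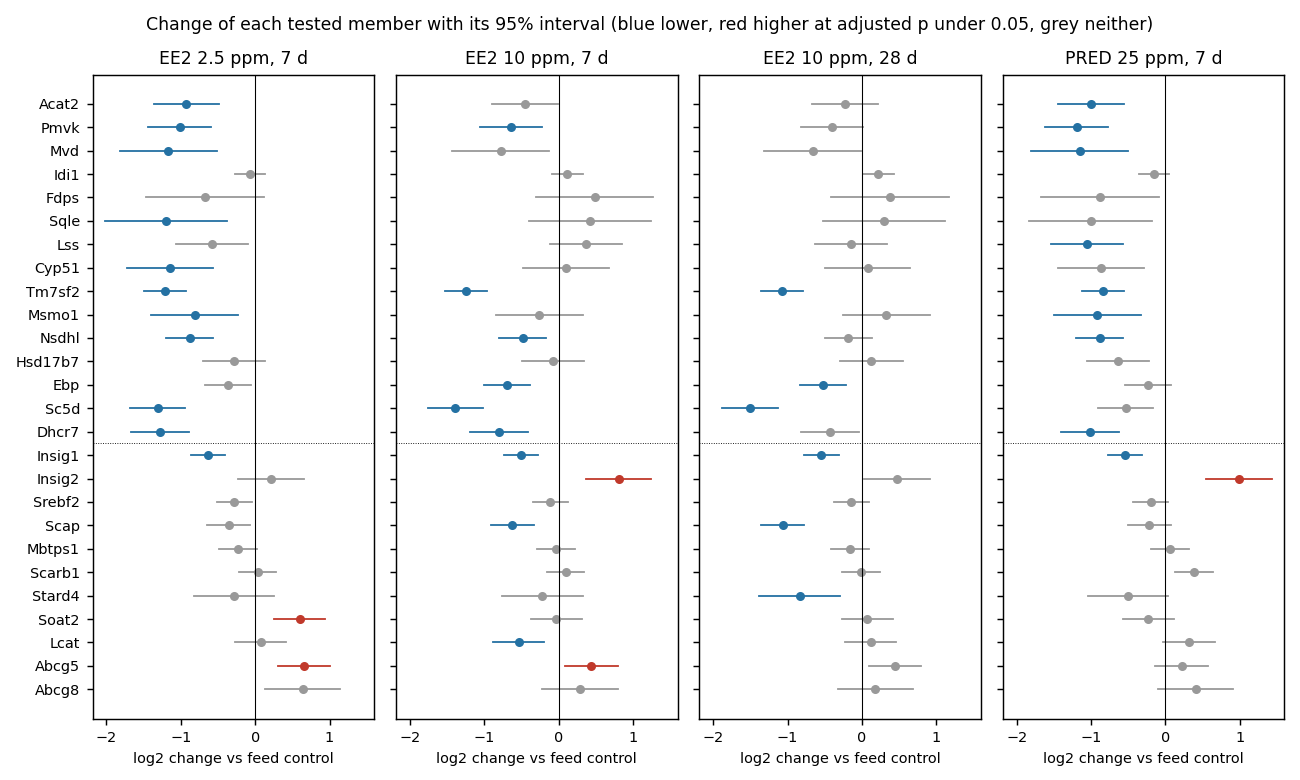
Log2 change of each of the 26 tested members against the feed control of the same duration, with its 95% interval, in 4 comparisons. Points in blue were lower and in red higher at an adjusted p under 0.05, points in grey were neither, and the dotted line separates the enzymes (above) from the other members. Nearly all enzymes lie left of 0 under EE2 2.5 ppm and PRED 25 ppm, and Sc5d, Tm7sf2 and Insig1 stay left of 0 under EE2 10 ppm.

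EE2 and PRED were compared directly at the ppm values both were fed, which are equal amounts in feed and not equal potencies. At 2.5 ppm 11 members were lower under EE2 and 3 higher, where 4.07% and 5.78% of all genes were. Sc5d differed most, with 182.7, 208, 178.9 and 175.95 under EE2 and 759.9, 492, 444 and 458 under PRED (log2 change -1.42, SE 0.20, adjusted p = 5.06e-07), followed among those without overlap by Mvd (-1.25), Tm7sf2 (-1.24), Cyp51 (-1.20) and Dhcr7 (-1.20). 12 members did not overlap between the compounds, against 12.7% of all genes. The count of calls was 7 without EE2 replicate 1. At 5 ppm 6 members were lower and 1 higher (8.43% and 9.61% of all genes). Sc5d (log2 change -1.39, SE 0.20, adjusted p = 4.41e-07) and Tm7sf2 (log2 change -1.02, SE 0.15, adjusted p = 8.97e-07) lay below every PRED array. In all, 3 members did not overlap, a share near the 12.3% of all genes. The count of calls was 3 without PRED replicate 4 and 4 without EE2 replicate 2.

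A4 gave no call among the members. limma called 0 at the 4 doses for 7 days, at the top dose for 28 days, in the trend and between the times, where 0% of all genes were called (0.00881% between the times). 0 members had an unadjusted p under 0.05 in any of these, against 5.25%, 1.98%, 2.67% and 3.78% of all genes from the lowest to the highest dose at 7 days, 2.3% at 28 days, 2.81% in the trend and 3.7% between the times. At 50 mg/kg/day for 7 days, Sc5d read 624, 363, 666 and 400.0, against 613, 757, 529.8 and 363 on the gavage controls (95% interval of the log2 change -0.54 to 0.27), and Tm7sf2 read 331, 337, 318 and 398, against 315, 326, 458 and 409 (95% interval -0.42 to 0.20). The groups overlapped in both. Fdps and Sqle had wider intervals, -1.08 to 0.65 and -1.17 to 0.63. Between the control groups limma also called 0 members: gavage against feed at 7 and 28 days (0% of all genes called; 2 and 1 members at an unadjusted p under 0.05, against 11.7% and 3.83% of all genes) and feed at 28 against 7 days (1.02% of all genes called; 7 members at an unadjusted p under 0.05, against 16.5% of all genes). Sc5d came nearest in the last (log2 change 0.57, SE 0.17, adjusted p = 0.0712) and passed when 7-day control replicate 4 or 28-day control replicate 2 or 4 was left out, and it was the 1 member called there.

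Among the genes that control SREBP, Insig1, itself an SREBP target that anchors SCAP in the endoplasmic reticulum, fell under EE2 and PRED 25 ppm. Insig1 was also lower at EE2 10 ppm, where most enzymes were not called. It read 160.8, 161.8, 170.6 and 145.3 at EE2 10 ppm for 7 days and 161.7, 171.99, 185.3 and 185.6 for 28 days, against 202 to 290.1 with a median of 231 and 237 to 286 with a median of 263 on the controls of each duration. Its changes were -0.59, -0.63, -0.60 and -0.50 at 1, 2.5, 5 and 10 ppm of EE2 for 7 days and -0.55 for 28 days (adjusted p = 0.00014). Under PRED 25 ppm it read 136.5, 170.3, 171.02 and 143.9 at 7 days and 199.8, 202, 183.5 and 204 at 28 days (-0.54 and -0.39). The limma call of Insig1 at PRED 28 days was lost without PRED replicate 3 and with the sample-name number as a random block (adjusted p up to 0.07755). In all of these but EE2 5 ppm every treated array lay below every control. Its intensities were not far above the array medians of 105.69 to 106.37, where folds are compressed, and it was detected on 75 arrays.

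Insig2, a homologue of Insig1 with a liver-specific transcript, rose in 2 comparisons. At PRED 25 ppm for 7 days it read 3944, 4335, 4580.0 and 4847, above every control (1463 to 3153 with a median of 2196; log2 change 0.99, SE 0.22, adjusted p = 0.00193), and at 28 days 3318, 3316, 3947 and 3899 (log2 change 0.42, SE 0.22, adjusted p = 0.236), which did not pass. At EE2 10 ppm for 7 days it read 3878, 2312, 5255 and 4904, with replicate 2 inside the control range (log2 change 0.81, SE 0.22, adjusted p = 0.00304), a call lost when only these 10 arrays were fitted (adjusted p = 0.0545). Its change was -0.25, 0.21 and 0.45 at the lower EE2 doses, none called, and the slope over the doses was positive (log2 change 0.23, SE 0.05, adjusted p = 0.000224).

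Scap, the SREBP escort, read 207, 203, 203 and 179.4 after 28 days of EE2, against 388 to 471 with a median of 435 (log2 change -1.07, SE 0.14, adjusted p = 1.71e-08), below every control. At 7 days it was lower at 5 and 10 ppm (-0.50 and -0.62), with overlap. Under PRED 25 ppm at 28 days it read 216, 308, 310.4 and 249, also below every control (log2 change -0.66, SE 0.14, adjusted p = 0.000866). Srebf2 was lower at EE2 1 ppm, at 212, 198.5, 183.01 and 187.5 against 232 to 320.3 with a median of 251 (log2 change -0.38, SE 0.12, adjusted p = 0.0214), a call lost without EE2 replicate 3 or 4 or control replicate 2, with the chip as a block, and without the 4 arrays apart (adjusted p = 0.0562 in the last). It was not called in the other comparisons of treated with control. Mbtps1, the Golgi protease, was not called in any comparison (EE2 10 ppm, 7 days: log2 change -0.03, SE 0.13, adjusted p = 0.864).

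For uptake and transport, Scarb1, the HDL receptor, was not called (PRED 25 ppm, 7 days: log2 change 0.38, SE 0.13, adjusted p = 0.0526), with 184.02, 210.2, 203 and 208 against 120.2 to 229 with a median of 137.8. Stard4, a cytosolic sterol carrier, fell after 28 days of EE2, at 512, 384, 499.9 and 562 against 761 to 1026 with a median of 865 (log2 change -0.84, SE 0.27, adjusted p = 0.0135), with no overlap. The call was lost without EE2 replicate 2 and with the sample-name number as a random block (adjusted p up to 0.0652 over the alternatives). At 7 days its change at 10 ppm was -0.22, and the difference between the times did not pass (log2 change -0.62, SE 0.38, adjusted p = 0.446).

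Of the esterifying enzymes, Soat2, which esterifies cholesterol in hepatocytes, rose at EE2 2.5 ppm, at 740.0, 452, 507 and 687 against 323 to 462 with a median of 373 (log2 change 0.60, SE 0.17, adjusted p = 0.0103), a call lost without EE2 replicate 1 or 4. It fell under PRED 25 ppm at 28 days, at 313, 345, 362 and 348 against 444 to 622 with a median of 515 (log2 change -0.58, SE 0.17, adjusted p = 0.0176), a call lost without PRED replicate 1 or control replicate 1. Lcat, the secreted enzyme that esterifies cholesterol on HDL, fell at EE2 10 ppm for 7 days (log2 change -0.53, SE 0.17, adjusted p = 0.0123), with overlap, and lost the call without EE2 replicate 2 or control replicate 2, without the 4 arrays apart (adjusted p = 0.0782) and when only these 10 arrays were fitted (adjusted p = 0.112).

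Abcg5, one partner of the biliary sterol exporter, rose at 1 and 2.5 ppm of EE2. It had intensities of 2322, 2679, 2278 and 3675 at the 1 ppm dose and 3039, 3039, 2539 and 2561 at 2.5 ppm, against 1553 to 2067 with a median of 1752, and all 8 arrays lay above every control (log2 change 0.61, SE 0.18, adjusted p = 0.0138 and log2 change 0.66, SE 0.18, adjusted p = 0.00587). The call at 1 ppm was lost without EE2 replicate 4 (adjusted p = 0.114). At 10 ppm it read 2561, 2669, 1513 and 3168 (log2 change 0.44, SE 0.18, adjusted p = 0.046), a call lost under 12 of 19 alternatives, among them the omission of EE2 replicate 1, 2 or 4 or of control replicate 1, 3, 5 or 6. Abcg8, the other partner, was not called against control (2.5 ppm: log2 change 0.64, SE 0.25, adjusted p = 0.0782) but was higher under EE2 than under PRED at 2.5 ppm (log2 change 0.82, SE 0.28, adjusted p = 0.044), a call lost under, for example, the omission of EE2 replicate 1 or 4 or of PRED replicate 2, 3 or 4. The 2 genes lie head to head, and their windows of 250 bases before the start share 109 bases.

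Between arrays of the same group the enzymes also varied together. Over the 80 arrays, each taken as a deviation from its group mean, the 105 pairs of enzymes had a median Pearson r of 0.437, from -0.146 to 0.889, and 97 were positive. The 55 pairs of other members had a median of 0.0488. The enzymes closest to the mean of the other enzymes were Nsdhl (r = 0.839), Cyp51 (0.817), Acat2 (0.797) and Sqle (0.79), and the farthest were Tm7sf2 (0.0604) and Ebp (0.245). Insig1 followed the enzyme mean with r = 0.685 (Spearman 0.63; 0.673 with chip effects removed; 0.635 without the 2 farthest arrays), Insig2 with 0.347, Stard4 with 0.344 and Srebf2 with 0.295, and Abcg8 ran against it with -0.271. These are descriptions without a test. The points share the array and its normalization, and the enzyme mean deviated by -0.67 to 0.535, both ends in EE2 groups.

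**Figure D4:**
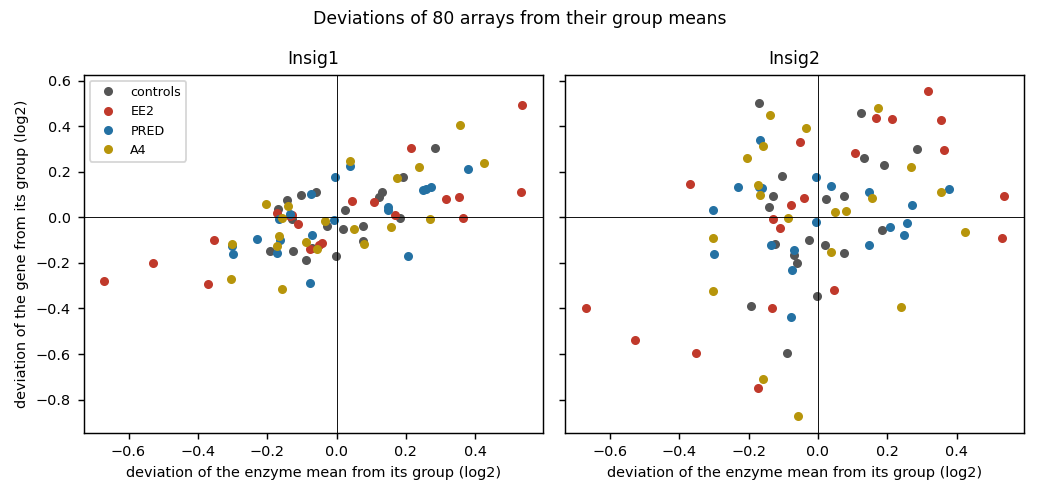
Deviation of Insig1 (left) and Insig2 (right) from the group mean against that of the mean of the 15 enzymes, on the log2 scale, 1 point per array (80), coloured by compound. Insig1 rises with the enzyme mean (r = 0.685), and Insig2 scatters more (r = 0.347).

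Of 44 other genes of the pathway that were tested, 10 were higher and 5 lower at EE2 10 ppm for 7 days, where 18.1% and 15.2% of all genes were. At 28 days 5 were higher and 9 lower (14.8% and 13.8% of all genes). At PRED 25 ppm 3 were higher and 5 lower at 7 days (3.29% and 2.72%), and 3 higher and 7 lower at 28 days (4.64% and 5.25%). At 1, 2.5 and 5 ppm of EE2, 1, 3 and 7 were higher (6.29%, 7.58% and 12.8%) and 5, 3 and 4 lower (7.06%, 7.02% and 11.6%). Osbp and Apob, also on those lists, were not analysed here. Cyb5r3, which reduces the cytochrome b5 that serves the sterol desaturase, and Cyb5b, a mitochondrial cytochrome b5, were lower in all 7 of these comparisons, Cyb5r3 with a log2 change of -1.07 at EE2 10 ppm for 7 days (1165 ± 106.6 against 2461 ± 274, mean ± SD). Por, which passes electrons to Cyp51 and Sqle, was higher in 6 of the 7 and read 745 ± 167.1 at PRED 25 ppm for 7 days, against 255 ± 59.8 (log2 change 1.49, SE 0.30, adjusted p = 0.000375).

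Cyp7a1, the rate-limiting enzyme of bile acid synthesis from cholesterol, fell at EE2 10 ppm for 7 days (log2 change -1.61, SE 0.56, adjusted p = 0.0208), to 174.8 ± 101.1 from 544 ± 222. Mttp, which loads lipid onto apolipoprotein B, rose at PRED 25 ppm for 7 days (log2 change 0.64, SE 0.13, adjusted p = 0.000655), and Lipa, the lysosomal lipase that frees cholesterol from esters, fell at 28 days (log2 change -0.90, SE 0.20, adjusted p = 0.000852).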

How the data were processed

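RNA from liver was purified by Trizol followed by RNeasy, amplified to biotinylated cRNA and hybridised to Illumina bead arrays, per the labels' protocols. GenomeStudio read the arrays, per the submitters' processing notes. The normalization method is not given in these sources. The authors deposited normalized intensity values for 18138 entries, of 85.9 to 19761 with array medians of 105.69 to 106.37, and a detection p-value for each entry and array, per the file headers. No background subtraction shows in the values, which compresses the folds of dim probes.

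From the intensities, log2(intensity + 16) was fitted with limma 3.58.1 (R 4.3.3, statmod 1.5.0), 1 mean per group over all 80 arrays, for 11352 genes, each detected (p under 0.05) on 4 or more arrays, leaving out 8 control entries. The fit had 61 residual degrees of freedom. The tests were two-sided, with Benjamini-Hochberg adjustment within a comparison and a threshold of 0.05. Groups came from the sample labels, and replicate numbers follow sample order within a group and pair nothing. The 10 chips held 8 arrays of 6 to 8 groups each, so the chip was tried as a block. So was a number in the sample name that 9 sets of arrays, 19 in all, share (consensus correlation 0.378). Most of these sets lie within a single group. Such sets occur in both control feed groups, both groups at the top PRED dose and the group of the longer EE2 exposure. What the number stands for is not stated, so arrays that share it may not be independent. The main fit treats them as independent. The other alternatives changed the offset, the background, the filter, the variance prior, the arrays fitted and the arrays left out. Arrays have no counting depth, and their number limits the precision. The script was tested on simulated data.

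The members, the other gene lists and the markers were chosen with earlier results of these data known. Arrays are given one by one for members past the threshold whose treated arrays all lie above or all below the controls, up to 6 by size of change, and for up to 3 other pathway genes per comparison. Further members were named for their role or after their values were seen. Correlations within groups are given without the permutation p, because the enzymes averaged were chosen. Promoters are RefSeq's, build GRCm38.p6. Python 3.11.15 drew the figures. Some results for other genes of the pathway are not reported here.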

Additional observations from a re-analysis of the deposited data

Results flagged for a closer look

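In groups of 4 to 6 arrays, the highest or lowest array of a member was set against Dixon's 95% limit for a value far from the others. 25 of 494 such tests passed it (5.06%), about the 1 in 20 that chance gives, so no pattern is read from them. Single values that stood apart among the synthesis enzymes in EE2 groups were Sqle at 398.93 (10 ppm, 7 days, replicate 2, low), Lss at 932.45 (28 days, replicate 3, high), Nsdhl at 195.94 (1 ppm, replicate 3, high) and Hsd17b7 at 1117.6 (1 ppm, replicate 4, low). In PRED groups they were Sqle at 1714.2 and Cyp51 at 1455.7, both on replicate 4 of 2.5 ppm and both high, and Tm7sf2 at 477.09 (1.25 ppm, replicate 3, high). In A4 groups and gavage controls they were Acat2 at 1522.1 and Lss at 855.85, both on replicate 3 of 10 mg/kg/day, Mvd at 667.5 (20 mg/kg/day, replicate 1), Tm7sf2 at 470.02 (2 mg/kg/day, replicate 2) and Sqle at 1063.2 (gavage control, 7 days, replicate 4), all high.

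Among the SREBP control genes, Scap stood apart at 270.05 (EE2 10 ppm, 7 days, replicate 4, high) and 179.45 (28 days, replicate 4, low). Srebf2 at 290.59 and Mbtps1 at 275.02 were high on replicate 1 of A4 for 28 days, and Mbtps1 was low at 226.63 (A4 50 mg/kg/day, 7 days, replicate 4) and high at 318.76 (feed control, 7 days, replicate 2). Of the other members, Scarb1 was low at 138.2 (EE2 10 ppm, 7 days, replicate 1) and 129.42 (A4 20 mg/kg/day, replicate 1), Stard4 low at 226.94 and Lcat high at 8424.2, both on replicate 4 of PRED 1.25 ppm. Abcg5 was high at 2706.7 (A4 10 mg/kg/day, replicate 4), and Abcg8 was low at 1000.0 (A4 2 mg/kg/day, replicate 3) and 973.29 (PRED 25 ppm, 7 days, replicate 1).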

How the results depend on the processing

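No call of a member changed sign under any alternative. Fitting only the groups compared moved the count of members most: to 6 from 12 at EE2 5 ppm for 7 days, 14 from 9 at PRED 25 ppm for 28 days (with all 9 kept), 1 from 0 in the PRED 28-day minus 7-day change (Dhcr7), 0 from 4 in EE2 10 minus 1 ppm, 6 from 14 in EE2 minus PRED at 2.5 ppm and 2 from 7 at 5 ppm. That fit has fewer arrays to estimate the spread. The sample-name number as a random block gave 4 in place of 9 at PRED 25 ppm for 28 days. Some arrays of that group, and some of its controls, share such a number with another array of their own group. The chip block gave 4 in place of 7 in EE2 minus PRED at 5 ppm. The cause of these losses was not tested. Leaving out 1 array at a time gave 1 to 6 members in EE2 10 minus 1 ppm, 7 to 16 in EE2 minus PRED at 2.5 ppm, 3 to 9 at 5 ppm and 0 to 1 in feed control 28 minus 7 days. In the other comparisons these counts kept within 1.5 times the main count: 8 to 12 at EE2 1 ppm, 10 to 15 at 2.5 ppm, 11 to 14 at 5 ppm, 9 to 12 at 10 ppm, 6 to 7 at 28 days, 8 to 12 at PRED 25 ppm and 7 to 10 at 28 days. The calls of Sc5d, Tm7sf2 and Insig1 in the 5 EE2 comparisons with control held under all that were run. Probes near background, Insig1 and Idi1 among them, have folds that the signal over background limits. No paired analysis was possible because the labels give no replicate numbers that link arrays across groups. Blocks were possible for the chip and the sample-name number, as above.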
